A study of Mus musculus with 6 samples.

Results

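Transcripts of brain blood vessels were followed through 10 genes that mark 2 cell types of the vessel wall in RNA-seq libraries of microglia from MRL/lpr and MRL/mpj mice. The 10 genes were chosen by symbol from the 55401 Ensembl identifiers of the count table. They comprise 8 genes of brain endothelial cells (Cldn5, Pecam1, Cdh5, Flt1, Kdr, Tek, Slco1a4 and Abcb1a) and 2 genes of pericytes (Pdgfrb and Rgs5). Each symbol matched 1 identifier, and all 10 passed the filter on low counts that left 19554 genes for testing. The 3 MRL/lpr and 3 MRL/mpj libraries came from untreated mice aged 6 weeks, and no other group was sequenced. In MRL/lpr mice the death receptor gene Fas bears the lpr mutation on the MRL background, and these mice develop a lupus-like disease, and MRL/mpj mice are the background strain without it. The brains were perfused and digested with enzymes, and cells positive for the myeloid surface protein CD11b were taken with magnetic beads after a Percoll gradient. The material is described as 3 mice of each strain, although the labels tie no library to an animal, so p-values measure the spread between libraries, which may be technical.

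Endothelial cells line the brain capillaries and form the blood-brain barrier, in which tight junctions seal the gaps between cells and transporters control what passes through them. Pericytes are wrapped around the capillaries within the same basement membrane and depend on the growth factor PDGF-B, which the endothelium releases. Neither is a cell type that carries CD11b, so their transcripts were not the target of the selection. In bulk libraries, fewer cells of a type and less RNA per cell cannot be told apart.

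The libraries held 45481609 to 49846634 counts. The microglial receptor gene Csf1r had a mean of 1543 FPKM in MRL/lpr and 1603 FPKM in MRL/mpj, above all members. MRL/lpr replicate 3 stood apart from the other libraries. The transcript CT010467.1 took 6.38% of its counts and at most 0.458% of those of any other library. The mitochondrial share of counts was 3.06% to 3.49% in MRL/lpr and 5.84% to 6.38% in MRL/mpj. The methods give female mice, yet the X-inactivation transcript Xist had 8886 to 11319 counts in MRL/lpr and 27 to 38 in MRL/mpj, and the Y-linked genes Ddx3y, Kdm5d, Eif2s3y and Uty had counts in all 6 libraries. The sexes of the animals and the strain therefore cannot be told apart here.

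The 8 endothelial genes were readily measured in all 6 libraries and lay close together between the strains, apart from Flt1 and Tek. Flt1 was 1.28-fold higher in MRL/lpr, Tek was lower at 0.731 of its MRL/mpj level, and the other 6 did not pass the test. Of the pericyte genes, Pdgfrb was lower in MRL/lpr at 0.679 of its MRL/mpj level, and Rgs5 missed the threshold. By the quasi-likelihood test of edgeR, adjusted over all tested genes by the Benjamini-Hochberg method, 1 of the 10 members was thus called higher and 2 lower at an adjusted p under 0.05. Among all 19554 genes tested, 11.1% were called higher, 9.06% lower and 20.2% in either direction. With all 6 libraries in the fit, the members' share was thus not far from the background. Of the 3950 genes called, 55.1% were higher in MRL/lpr, against 36.9% of the 4424 genes called when counts were scaled by library size alone, which shifted the median log2 fold change of all genes from −0.01 to −0.13. None of the members reached an absolute log2 fold change of 1, by edgeR or by DESeq2, whereas 4.67% of all genes were called higher, 3.66% lower and 8.34% in either direction with that limit.

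**Figure D1:**
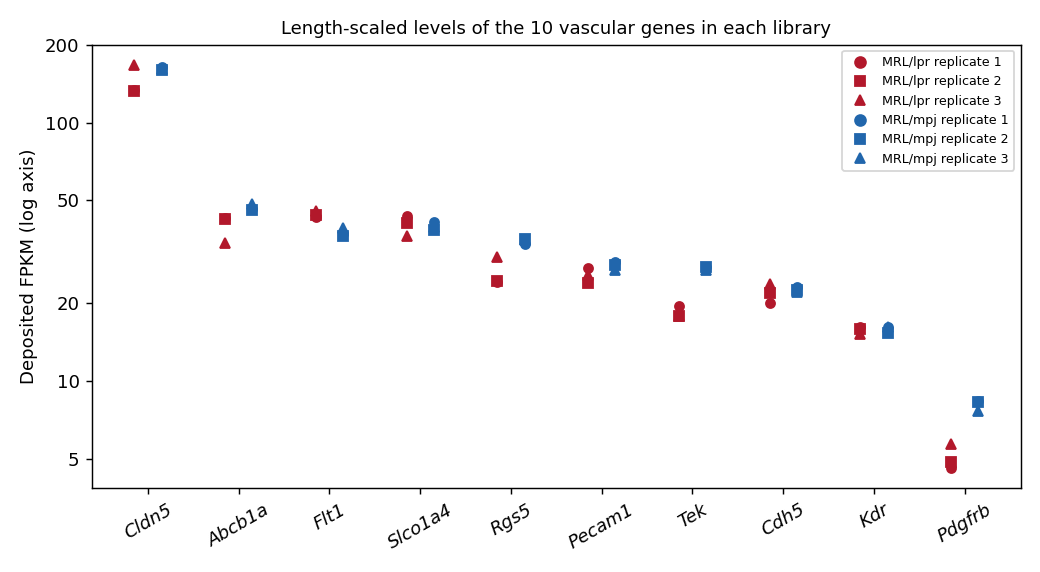
Deposited FPKM of the 10 genes in each library on a log axis, in order of the mean, with MRL/lpr libraries in red and MRL/mpj libraries in blue and a marker shape for each replicate. Cldn5 lies highest, between 132 and 167 FPKM in all 6 libraries, and Pdgfrb lowest, between 4.61 and 8.36 FPKM.

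Levels of different genes were compared on the FPKM scale, which takes the length of the gene into account. Cldn5 was the most abundant member in both strains. Abcb1a, Flt1 and Slco1a4 followed with strain means between 37.6 and 46.9 FPKM, and their ranges overlapped, so they had no firm order. Rgs5, Pecam1, Tek and Cdh5 had strain means between 18.4 and 34.9 FPKM. Kdr lay below them at 15.8 ± 0.527 (SD, n = 3) in MRL/lpr and 15.9 ± 0.482 (SD, n = 3) in MRL/mpj. Pdgfrb was the least abundant in every library.

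Cldn5 encodes claudin-5, the main sealing protein of endothelial tight junctions. It is a gene of 1416 exonic bases at chr16:18776847-18778262 on the plus strand (GRCm38, GENCODE M21). Its FPKM was 133, 132 and 167 in MRL/lpr replicates 1 to 3 and 165, 159 and 161 in MRL/mpj replicates 1 to 3. MRL/lpr replicates 1 and 2 were below every MRL/mpj library and replicate 3 was above them, so the groups overlapped. The log2 fold change of MRL/lpr over MRL/mpj was −0.04 (SE 0.11, edgeR adjusted p = 0.853). It was 0.029 without MRL/lpr replicate 1 and 0.033 without replicate 2 (edgeR adjusted p = 0.909 and 0.898). Without MRL/lpr replicate 3 it was −0.19 with an edgeR adjusted p of 0.014, so the library that stands apart decides whether Cldn5 is called.

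Pecam1 and Cdh5 encode adhesion proteins of the contacts between endothelial cells, CD31 and VE-cadherin, and leukocytes and platelets also express Pecam1. Pecam1 (chr11:106654217-106750628, minus strand) had 27.3, 23.9 and 25.7 FPKM in MRL/lpr and 28.8, 28.0 and 26.9 FPKM in MRL/mpj. Only MRL/lpr replicate 1 reached into the MRL/mpj range. Scaled by TMM, its CPM was 187 ± 13.8 in MRL/lpr and 187 ± 6.22 in MRL/mpj (SD, n = 3), with a log2 fold change of −0.00027 (SE 0.073, edgeR adjusted p = 0.999). Cdh5 (chr8:104101625-104144511, plus strand) had 20.1, 21.9 and 23.8 FPKM in MRL/lpr and 23.1, 22.5 and 22.1 FPKM in MRL/mpj. The MRL/lpr libraries spanned the MRL/mpj range, and the log2 fold change was 0.08 (SE 0.09, edgeR adjusted p = 0.587). An antisense gene, Gm29682, overlaps Cdh5, and whether the counting used strand is not given in the sources used here.

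Flt1, Kdr and Tek encode receptor tyrosine kinases that endothelial cells use to read growth factors. FLT1 (VEGFR1) binds VEGF-A tightly and limits what reaches KDR (VEGFR2), the main signalling receptor for VEGF-A, while TEK (TIE2) binds the angiopoietins. Since Flt1 was called higher and Tek lower in MRL/lpr, their promoters are shown beside that of Kdr, which was not called. Each runs from 250 bases before to 50 bases after the RefSeq gene start in GRCm38.p6, 5′ to 3′ on the gene's strand. The Flt1 promoter is chr5:147725962-147726261 (minus strand), that of Kdr chr5:75978406-75978705 (minus strand) and that of Tek chr4:94739039-94739338 (plus strand). Capitals mark AGGAA or its reverse complement TTCCT, letters that hold the core GGAA bound by ETS-family factors such as ERG.
Flt1: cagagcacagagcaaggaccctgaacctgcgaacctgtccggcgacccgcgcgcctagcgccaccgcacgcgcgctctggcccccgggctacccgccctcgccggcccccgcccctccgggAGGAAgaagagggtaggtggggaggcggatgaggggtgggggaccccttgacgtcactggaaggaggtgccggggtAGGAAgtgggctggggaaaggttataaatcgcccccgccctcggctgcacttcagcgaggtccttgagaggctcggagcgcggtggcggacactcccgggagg
Kdr: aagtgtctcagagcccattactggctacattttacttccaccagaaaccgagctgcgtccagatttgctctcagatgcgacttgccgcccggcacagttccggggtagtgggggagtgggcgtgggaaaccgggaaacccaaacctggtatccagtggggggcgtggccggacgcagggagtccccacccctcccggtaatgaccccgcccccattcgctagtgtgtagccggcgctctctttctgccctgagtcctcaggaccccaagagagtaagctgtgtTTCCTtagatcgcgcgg
Tek: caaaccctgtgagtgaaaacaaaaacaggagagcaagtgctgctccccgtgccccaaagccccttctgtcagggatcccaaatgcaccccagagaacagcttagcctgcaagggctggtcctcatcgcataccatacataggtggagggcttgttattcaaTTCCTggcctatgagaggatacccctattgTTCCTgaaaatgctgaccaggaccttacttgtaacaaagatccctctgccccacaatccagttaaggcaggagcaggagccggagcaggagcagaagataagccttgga
The letters occurred 2 times in the Flt1 window, 1 time in that of Kdr and 2 times in that of Tek. They occurred at least 1 time in 66.7% of all 32851 RefSeq promoters of that length, and at least 2 times in 33.3%, so these matches are common and serve as description. Of the other members with an entry, the window of Slco1a4 had 3 matches, that of Abcb1a 4 and that of Rgs5 2, and the letters were not found in that of Cldn5. The Abcb1a window, chr5:8566841-8567140, lies far upstream of the GENCODE position of the gene, chr5:8660077-8748575.

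Flt1 (chr5:147561604-147726011, minus strand) had 43.0, 44.1 and 45.3 FPKM in MRL/lpr and 37.0, 36.5 and 39.2 FPKM in MRL/mpj. Every MRL/lpr library lay above every MRL/mpj library. In CPM the values were 667, 683 and 743 against 537, 529 and 570. The log2 fold change was 0.36 (SE 0.064, edgeR adjusted p = 0.00393).

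Tek (chr4:94739289-94874976, plus strand) had 19.6, 17.8 and 17.8 FPKM in MRL/lpr and 27.6, 27.6 and 26.9 FPKM in MRL/mpj. The groups were well apart on both scales, with 106, 96.6 and 102 CPM against 140, 140 and 136 CPM. The log2 fold change was −0.45 (SE 0.067, edgeR adjusted p = 0.00124). Kdr (chr5:75932827-75978458, minus strand) had 16.2, 15.9 and 15.2 FPKM in MRL/lpr and 16.2, 15.3 and 16.2 FPKM in MRL/mpj, and the groups overlapped. In TMM-scaled CPM the Kdr groups did not overlap, at 166 ± 1.60 in MRL/lpr and 154 ± 4.75 in MRL/mpj (SD, n = 3), and the log2 fold change of 0.11 (SE 0.061) did not pass the test (edgeR adjusted p = 0.268).

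Slco1a4 and Abcb1a encode transporters of the barrier, an uptake carrier for organic anions and the drug efflux pump P-glycoprotein. Slco1a4 (chr6:141805440-141856199, minus strand) had 43.5, 41.0 and 36.4 FPKM in MRL/lpr and 41.3, 38.5 and 39.5 FPKM in MRL/mpj. The groups overlapped, and the log2 fold change was 0.14 (SE 0.067, edgeR adjusted p = 0.196). Without MRL/lpr replicate 3, the lowest library, it was 0.19 with an edgeR adjusted p of 0.0288. Abcb1a (chr5:8660077-8748575, plus strand) had 42.6, 42.2 and 34.3 FPKM in MRL/lpr and 46.3, 45.9 and 48.5 FPKM in MRL/mpj. Every MRL/lpr library was below every MRL/mpj library, yet the log2 fold change of −0.12 (SE 0.075) did not pass the test (edgeR adjusted p = 0.312). Both belong to families of similar genes, whose reads the counting could have split, and the gene models Gm42684 and Gm42686 overlap Abcb1a.

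Pdgfrb encodes the PDGF-B receptor on pericytes and other mural cells, and Rgs5 a regulator of G-protein signalling enriched in pericytes. Pdgfrb (chr18:61045150-61085061, plus strand) had 4.61, 4.84 and 5.69 FPKM in MRL/lpr and 8.36, 8.28 and 7.67 FPKM in MRL/mpj. The groups did not overlap, and the log2 fold change was −0.56 (SE 0.11, edgeR adjusted p = 0.00703). Rgs5 (chr1:169655501-169695813, plus strand) had 24.1, 24.3 and 30.1 FPKM in MRL/lpr and 34.0, 35.5 and 35.3 FPKM in MRL/mpj. All MRL/lpr libraries were below the MRL/mpj libraries on this scale, with replicate 3 the nearest. In TMM-scaled CPM replicate 3 almost touched them, at 165.9 against 166.5 in the lowest MRL/mpj library. The log2 fold change of Rgs5 was −0.29 (SE 0.11, edgeR adjusted p = 0.0885), and without MRL/lpr replicate 3 it was −0.43 with an edgeR adjusted p of 0.000345. With scaling by library size alone, Rgs5 was called lower at −0.42 with an edgeR adjusted p of 0.0105.

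**Figure D2:**
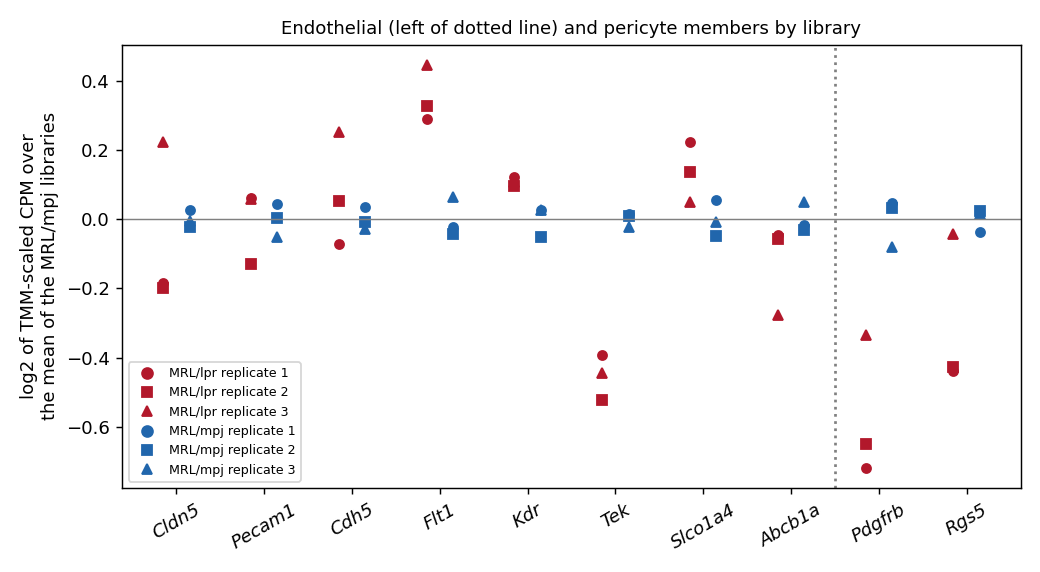
TMM-scaled CPM of each member in each library as log2 over the mean of the MRL/mpj libraries, with endothelial members left of the dotted line and pericyte members right of it, MRL/lpr in red and MRL/mpj in blue. All MRL/lpr points of Flt1 lie above the MRL/mpj points and all of Tek and Pdgfrb below them, while MRL/lpr replicate 3 (red triangle) lies apart from the other MRL/lpr points for Cldn5 and Rgs5.

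In TMM-scaled CPM, groups did not overlap for 6 of the 10 members, with Flt1 and Kdr higher and Tek, Abcb1a, Pdgfrb and Rgs5 lower in MRL/lpr, of which the fitted fold change of Kdr turned to −0.015 with scaling by library size alone. Across all tested genes this held for 39.0%, with 19.6% higher and 19.4% lower. The summed CPM of the 8 endothelial members was 2037, 2003 and 2126 in MRL/lpr and 1940, 1884 and 1947 in MRL/mpj, a log2 ratio of 0.095. With scaling by library size alone the log2 ratio was −0.029, and in FPKM it was −0.12, so the direction of the sum depended on the scaling. Endothelial members took 0.195% to 0.203% of all counts in the 6 libraries. The summed CPM of both pericyte members was 155, 157 and 204 in MRL/lpr and 216, 222 and 218 in MRL/mpj, a log2 ratio of −0.34, and was lower in MRL/lpr with each scaling.

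MRL/lpr replicate 3 differed from the other MRL/lpr libraries along GC content. In 9294 genes with a mean CPM of at least 10, the median log2 difference of replicate 3 from the mean of replicates 1 and 2 was −0.18, −0.10, −0.0014, 0.09 and 0.17 over 5 equal groups of genes ordered from low to high GC content. Cldn5, with 60.5% GC, was 0.41 higher in replicate 3 on the log2 scale, Pdgfrb with 54.9% GC 0.34 higher and Cdh5 with 52.2% GC 0.26 higher. Abcb1a, with 45.2% GC, was at −0.22 and Slco1a4, with 40.3% GC, at −0.13. Rgs5 was off this order, with 41.1% GC and a difference of 0.39. The part of GC content in the values of replicate 3 was not tested.

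**Figure D3:**
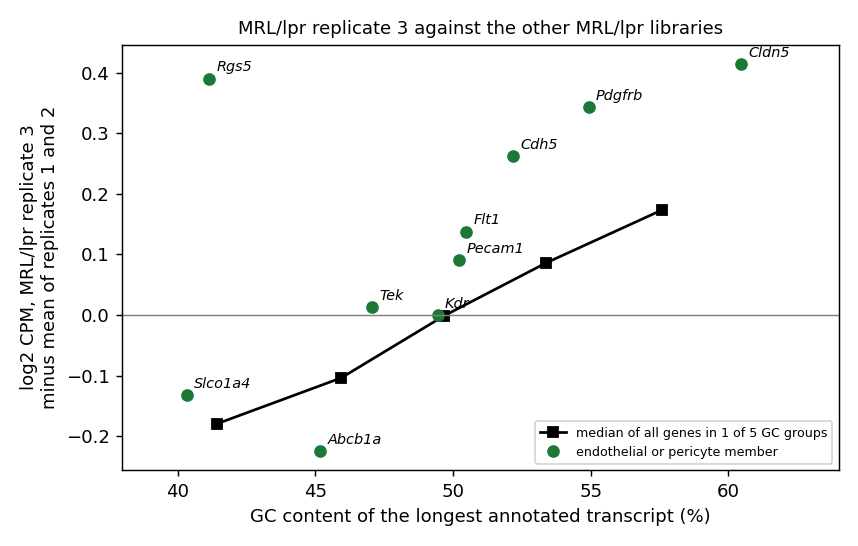
Difference of MRL/lpr replicate 3 from the mean of MRL/lpr replicates 1 and 2 in log2 CPM against the GC content of the longest annotated transcript, with black squares for the median of all genes in each of 5 groups of GC content and green points for the members. The medians rise from −0.18 to 0.17, and most members lie above that line, with Rgs5 farthest from it.

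Other genes of the same cells were taken from lists. Of 35 further endothelial genes, 4 were higher and 10 lower in MRL/lpr, and 21 did not pass the test. Their median log2 fold change was −0.12, against −0.01 over all genes. Of all tested genes, 11.1% were called higher and 9.06% lower, so the higher calls in this list were near the background. These shares also apply to the vascular lists that follow. In the endothelial list, the smallest adjusted p were those of Itm2a and Cd34. Itm2a, a membrane protein of brain endothelium, had 90.4 ± 8.84 FPKM in MRL/lpr and 181 ± 4.06 FPKM in MRL/mpj (SD, n = 3), a log2 fold change of −0.88 (SE 0.068, edgeR adjusted p = 2.4e-05). Cd34, a sialomucin of the luminal surface, had 26.4 ± 0.798 against 49.7 ± 2.51 FPKM and a log2 fold change of −0.79 (SE 0.07, edgeR adjusted p = 5.31e-05). The sialomucin gene Emcn, which is found in capillaries and veins, had a log2 fold change of −0.84, the adhesion receptor gene Adgrf5 −0.43, the thyroid hormone carrier gene Slco1c1 −0.39 and Myct1 −1.44. Of the transporter genes called in the list, Slc2a1 and Mfsd2a were higher and Slco1c1 and Slc38a5 lower. The glucose transporter gene Slc2a1 had 199 ± 6.40 FPKM in MRL/lpr and 161 ± 3.61 FPKM in MRL/mpj, a log2 fold change of 0.43 (SE 0.064, edgeR adjusted p = 0.0013), and the lipid transporter gene Mfsd2a had a log2 fold change of 0.48. Tmem252 and Ly6c1 were higher by 0.50 and 0.34 on the log2 scale, and Ly6c1, which shares sequence with Ly6c2 of monocytes, lost its call with scaling by library size alone (edgeR adjusted p = 0.0529). Leaving out 1 library lowered the count of 10 to 6 when MRL/lpr replicate 1 or MRL/mpj replicate 2 was dropped, and raised it to 12 when MRL/lpr replicate 3 was dropped. The genes lost in such fits were Ocln, Slc38a5, Ptprb and Egfl7, with edgeR adjusted p of 0.0506 to 0.129.

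Genes of pericytes and arterial smooth muscle outside the members were mostly lower in MRL/lpr. Of 16 such genes, 13 were lower in MRL/lpr, 10 of them with a log2 fold change of at most −1, and 3 (Kcnj8, Anpep and Ndufa4l2) did not pass the test. Kcnj8 and Anpep leaned higher in MRL/lpr, with log2 fold changes of 0.46 and 0.02, and Ndufa4l2 leaned lower at −0.52. The list had a median log2 fold change of −1.11. Their summed FPKM was 95.8 to 111 in MRL/lpr and 278 to 298 in MRL/mpj.

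The smallest adjusted p were those of Acta2, Myh11 and Tagln, all genes of smooth muscle contraction. Acta2, smooth muscle actin, had 27.8, 29.3 and 33.4 FPKM in MRL/lpr and 126, 124 and 116 FPKM in MRL/mpj, a log2 fold change of −1.90 (SE 0.096, edgeR adjusted p = 1.97e-06). Myh11, the smooth muscle myosin heavy chain, had 8.09, 7.58 and 8.86 FPKM against 26.5, 27.9 and 28.0 FPKM, a log2 fold change of −1.63 (SE 0.088, edgeR adjusted p = 2.93e-06). No MRL/lpr library came near an MRL/mpj library for either gene. Tagln, an actin-binding protein of smooth muscle, had a log2 fold change of −1.38, the filament gene Des −1.17 and the adhesion gene Mcam −1.05. Cnn1, the contractile protein calponin, had the lowest log2 fold change of the list at −2.53 (SE 0.46, edgeR adjusted p = 0.00383), from 0.14 ± 0.0656 FPKM in MRL/lpr and 0.887 ± 0.281 FPKM in MRL/mpj (SD, n = 3). Among genes of pericytes, the potassium channel subunit gene Abcc9 had a log2 fold change of −1.46, the matrix protein gene Vtn −0.70 and the mural Notch receptor gene Notch3 −0.84. Atp13a5, a pericyte gene at −0.58, was no longer called when MRL/lpr replicate 1, 2 or 3 or MRL/mpj replicate 2 or 3 was left out, with edgeR adjusted p of 0.0525 to 0.105.

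**Figure D4:**
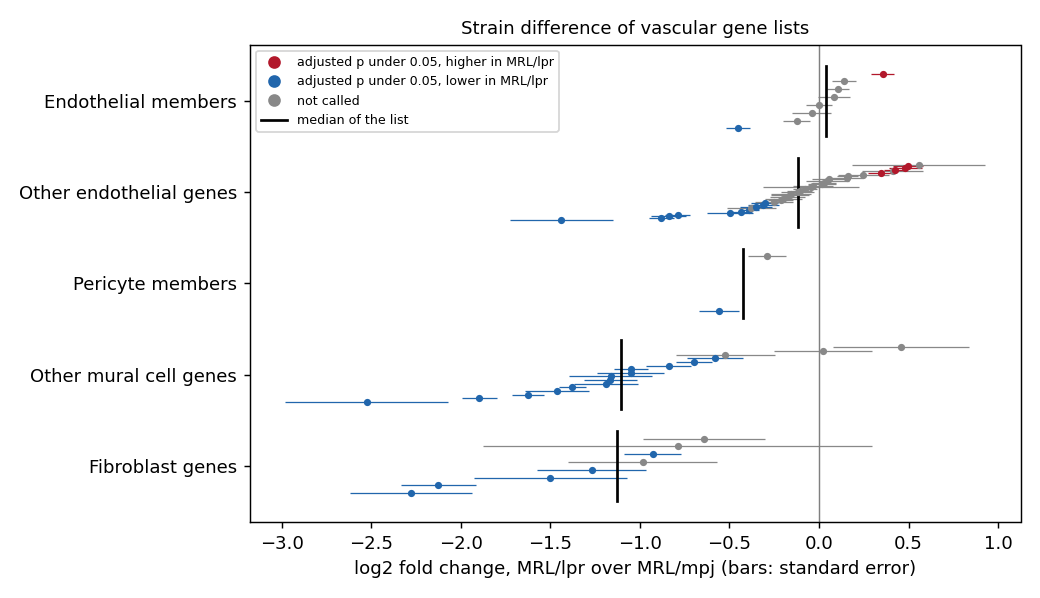
Log2 fold change of MRL/lpr over MRL/mpj for each gene of 5 vascular lists, with bars for the standard error, red and blue for genes called higher and lower at an adjusted p under 0.05, grey for the others, and a black line at each list's median. The endothelial members centre near 0, the other mural cell genes have a median of −1.11 and the fibroblast genes one of −1.13.

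Fibroblast genes of the vessel sheath and meninges were also lower, in 5 of 8 genes, with a median log2 fold change of −1.13. The collagen gene Col3a1 was at −2.13, the collagen gene Col1a2 at −0.93, the growth factor gene Igf2 at −2.28, the PDGF receptor gene Pdgfra at −1.27 and the proteoglycan gene Dcn at −1.50. These were low transcripts, with summed FPKM of 3.5 to 6.0 in MRL/lpr and 20.8 to 22.6 in MRL/mpj. The count of 5 dropped to 3 without MRL/lpr replicate 2, where Dcn had an edgeR adjusted p of 0.101 and Pdgfra of 0.0557. Dcn was also lost without MRL/lpr replicate 1 or MRL/mpj replicates 2 or 3, Pdgfra without MRL/mpj replicate 1 and Igf2 without MRL/lpr replicate 3, with edgeR adjusted p of 0.0504 to 0.131.

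To set the vascular genes against each other within a library, each was divided by the count of Cdh5, a choice made after the data were seen. The ratios are not scaled by length, so they compare strains and not genes. Flt1 had 6.48 ± 0.385 counts per Cdh5 count in MRL/lpr and 5.35 ± 0.30 in MRL/mpj (SD, n = 3), and Tek had 0.948 ± 0.129 against 1.36 ± 0.0176. Pdgfrb had 0.299 ± 0.0118 against 0.468 ± 0.0150, and Rgs5 1.29 ± 0.0826 against 1.68 ± 0.0709. Cldn5 had 2.21 ± 0.170 against 2.41 ± 0.0344. On this scale the groups did not overlap for these 5 of the 9 other members, 1 higher and 4 lower, and overlapped for Pecam1, Kdr, Slco1a4 and Abcb1a. Across all tested genes 35.0% did not overlap, with 13.7% higher and 21.3% lower. For Rgs5, MRL/lpr replicate 3 had 1.37 and thus lay nearer to the other MRL/lpr libraries, at 1.30 and 1.20, than to the lowest MRL/mpj library at 1.59. In CPM, Cdh5 itself was 0.26 higher in MRL/lpr replicate 3 than in replicates 1 and 2 on the log2 scale. Dividing by it therefore lowers that library for every gene. Acta2 had 0.717 ± 0.0170 counts per Cdh5 count in MRL/lpr and 2.83 ± 0.0759 in MRL/mpj.

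**Figure D5:**
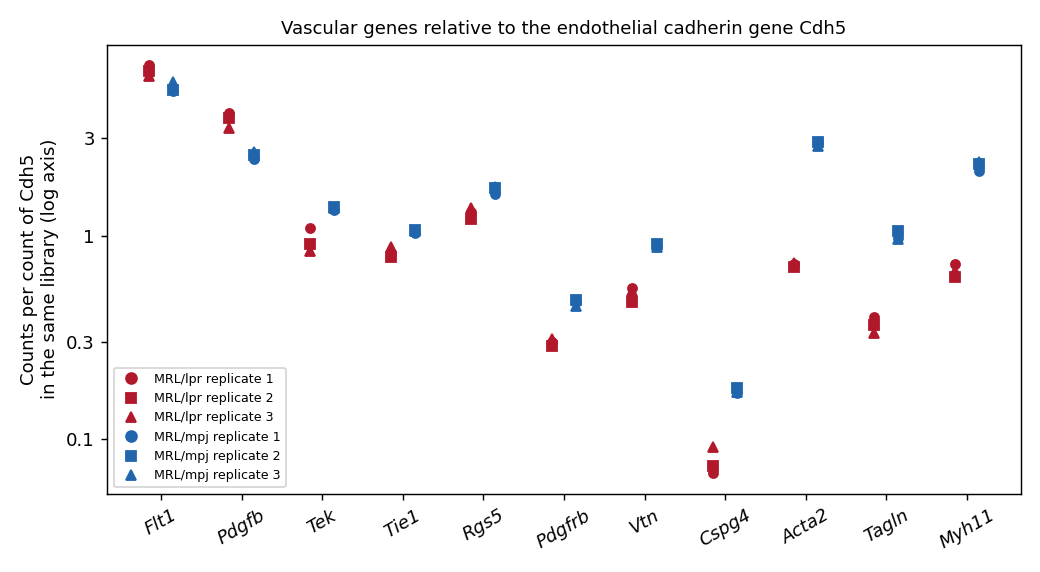
Counts of vascular genes per count of Cdh5 in the same library on a log axis, with MRL/lpr libraries in red and MRL/mpj libraries in blue. Flt1 and Pdgfb lie higher in all MRL/lpr libraries, and Tek, Tie1 and the mural genes from Rgs5 to Myh11 lie lower, with Acta2 widest apart at 0.717 against 2.83 on average. Tie1, an endothelial gene, overlapped between the groups in CPM and did not pass the test (log2 fold change −0.25, edgeR adjusted p = 0.144).

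The ligands and remaining receptors of the VEGF, angiopoietin and PDGF pathways formed a list of 13 genes, of which 1 was higher and 5 were lower in MRL/lpr. Pdgfb, the endothelial ligand of PDGFRβ that microglia and platelets can also express, was the one that was higher. It had 80.8, 83.7 and 81.2 FPKM in MRL/lpr and 55.3, 56.5 and 57.8 FPKM in MRL/mpj, with a log2 fold change of 0.66 (SE 0.058, edgeR adjusted p = 5.42e-05). Ligand and receptor of this pair thus lay in opposite directions between the strains. Of the VEGF ligands, Vegfa was lower with 2.24 ± 0.122 against 3.80 ± 0.361 FPKM (SD, n = 3), a log2 fold change of −0.64 (SE 0.13, edgeR adjusted p = 0.00674). Pgf, which binds FLT1, was at −1.26, and Vegfc, which binds FLT4 and KDR, at −1.37. Nrp1, a co-receptor of VEGF-A that myeloid cells also express, had 2.83 ± 0.312 against 8.43 ± 0.619 FPKM and a log2 fold change of −1.45 (SE 0.094, edgeR adjusted p = 7.67e-06). Angpt1, the activating ligand of TEK made by mural cells, was at −1.07. Angpt2, the ligand released by endothelium, had a log2 fold change of 0.22 (SE 0.19) and did not pass the test (edgeR adjusted p = 0.477).

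Wnt signalling with the co-receptors RECK and GPR124, and Norrin signalling through FZD4, maintain the barrier. Of 14 genes of this pathway, 1 was higher and 5 were lower in MRL/lpr, with a median log2 fold change of −0.31. The co-receptor gene Reck had 3.19 ± 0.189 FPKM in MRL/lpr and 7.61 ± 0.515 FPKM in MRL/mpj (SD, n = 3), a log2 fold change of −1.14 (SE 0.093, edgeR adjusted p = 3.29e-05). Adgra2, the gene of GPR124, was at −0.39 (SE 0.20) and did not pass the test (edgeR adjusted p = 0.244). The receptor genes Fzd6 and Fzd4 were at −0.72 and −0.36, the β-catenin gene Ctnnb1 at −0.30 and the feedback inhibitor gene Nkd1 at −0.50. Many cells use these genes, and the cell type that gave the counts cannot be read from bulk libraries. Sox7, an endothelial transcription factor gene, was higher by 0.51 on the log2 scale (SE 0.15, edgeR adjusted p = 0.0376), a call lost without MRL/lpr replicate 1 or 2 or MRL/mpj replicate 1 or 2, with edgeR adjusted p of 0.0992 to 0.13, and with scaling by library size alone (edgeR adjusted p = 0.104).

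Of the adhesion molecules by which activated endothelium captures leukocytes, 5 of 6 were tested. Icam1, which microglia also express, was higher in MRL/lpr with 146 ± 11.3 against 77.9 ± 2.39 FPKM (SD, n = 3) and a log2 fold change of 1.03 (SE 0.061, edgeR adjusted p = 4.96e-06). The other 4, Vcam1, Sele, Selp and Ackr1, did not pass the test. Vcam1, Selp and Ackr1 leaned lower in MRL/lpr, with log2 fold changes of −0.10, −0.45 and −1.04, and Sele leaned higher at 0.22. Sele, E-selectin, which is made by activated endothelium, had 1.46 ± 0.330 FPKM in MRL/lpr and 1.36 ± 0.166 FPKM in MRL/mpj.

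Markers of other cells were counted in the same way. Across all tested genes 11.1% were called higher, 9.06% lower and 20.2% in either direction. Several of the counts below, such as that of the microglial genes, were near these shares. Of 10 microglial genes, 2 were lower in MRL/lpr, among them Fcrls at −1.76, the median log2 fold change was 0.01, and the summed FPKM was 6232 to 6628 in MRL/lpr and 8042 to 8213 in MRL/mpj. That sum includes Cx3cr1, which had 545 FPKM in MRL/lpr replicate 2 and 43.8 and 45.2 FPKM in the other MRL/lpr libraries. The choroid plexus and ependyma list, with summed FPKM of 223 to 236 in MRL/lpr and 734 to 798 in MRL/mpj, had 5 of 6 genes lower, led by the carrier gene Ttr at −1.64. Of the neuronal genes 2 of 7 were lower (summed FPKM 1.80 to 2.24 against 4.44 to 5.51), of the oligodendrocyte genes 2 of 6 (12.7 to 14.0 against 19.3 to 24.2) and of the astrocyte genes 1 of 7 (14.9 to 19.2 against 24.6 to 25.5). Median log2 fold changes were −1.43 for choroid plexus and ependyma, −1.30 for neurons, −1.54 for oligodendrocytes and −0.02 for astrocytes. The first 3 lay below those of the other mural (−1.11) and fibroblast (−1.13) lists, so low medians were not particular to vascular genes. The astrocyte gene called was Slc1a3, with means of 6.64 against 14.2 FPKM. Of the uncalled astrocyte genes, Gfap, Aldh1l1 and Gja1 had log2 fold changes of 0.32, 0.68 and 0.10. Those of Aqp4, Slc1a2 and Aldoc were −0.02, −0.30 and −0.41. Platelet genes had 1 of 5 tested genes higher (Gp9 at 0.75) and summed FPKM of 21.8 to 28.2 against 15.8 to 22.0, and erythrocyte genes 1 of 6 higher (778 to 1225 against 748 to 832). Gp9 gave most of the platelet sum, with means of 20.7 against 13.4 FPKM. Of the uncalled platelet genes, Gp1ba had a log2 fold change of 0.13, and Pf4, Itga2b and Treml1 of −0.11, −0.15 and −0.51. Lymphoid genes had 5 of 12 higher (13.2 to 14.7 against 7.21 to 7.73), and neutrophil and monocyte genes 2 of 7 (492 to 518 against 415 to 488). None of the listed genes was at 0 in every library. The part of these cells and of mitochondrial content in the vascular differences was not tested.

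The genes whose levels over the 6 libraries were most like the summed endothelial members were Ern1, Arl6ip1, Cyfip1, Clptm1l and Elf4. Their root mean square differences from the sum in centred log2 CPM were 0.015 to 0.024. The sum hardly varied, and 1513 of 19355 genes lay within 0.1 of it, so the likeness is a description of level genes.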

How the data were processed

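RNA-seq of microglia from 3 MRL/lpr and 3 MRL/mpj mouse libraries was used, with groups from the genotype labels. According to the labels, rRNA was depleted and stranded libraries were made, whereas the paper's methods state that mRNA was purified. Reads were trimmed with cutadapt 1.9.3 and aligned with HISAT2 2.0.4. The submitters' processing notes also name Cufflinks, Cuffdiff 2.2.1 and the build GRCm38. The counting tool and annotation are not given in the sources used here. Counts per gene were deposited by the authors as whole numbers and were not normalized. In these counts, values of 4 were far more frequent than their neighbours, so 1 read pair appears to be worth about 4 counts. The authors also deposited FPKM per library, scaled by depth and gene length, which were used for levels and not for tests. Symbols came from GENCODE M21, which matched 55141 of 55401 identifiers, and promoters from RefSeq (GRCm38.p6), which matched 7 of the 10 members.

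Counts were filtered with filterByExpr (minimum count 10, minimum total 15), scaled with TMM and tested with edgeR 4.0.16 (R 4.3.3) by the robust quasi-likelihood test without covariates, with Benjamini-Hochberg adjustment over 19554 genes. A gene was called at an adjusted p under 0.05. CPM are TMM-scaled. The biological coefficient of variation was 0.26. In data simulated for this comparison over 19633 genes, 96.5% of 200 genes changed by 1 on the log2 scale were recovered and 2 others were called. The simulation used a smaller spread between libraries than that of these data. Its change was also larger than that of any member, so this recovery does not measure the power for the members. The members, and the lists around them, were chosen with earlier results of these data known. All members were named, and of each other vascular list up to 8 called genes by smallest adjusted p, plus Myct1, Cnn1 and genes whose call was lost or which did not pass the test, which were chosen after their values were seen. Alternatives were DESeq2 1.42.0, other scalings, no filter, counts divided by 4, a replicate block and leaving out each library. Counting intervals are not given, because counts per member were large and the spread between libraries was used.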

Additional observations from a re-analysis of the deposited data

How the results depend on the processing

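Flt1, Tek and Pdgfrb kept their direction and their call in each alternative run, with log2 fold changes of 0.23 to 0.39, −0.57 to −0.42 and −0.69 to −0.48. The signs of Cldn5, Pecam1, Cdh5 and Kdr were not fixed. Cldn5 was at 0.029 and 0.033 without MRL/lpr replicates 1 and 2. Pecam1 was at 0.0020 with RLE size factors and with DESeq2, 0.0024 with TMM on counts without mitochondrial and the 20 most abundant genes, and 0.010 with counts divided by 4. Scaling by library size alone, which moved the median of all genes to −0.13, gave −0.043 for Cdh5, −0.015 for Kdr, −0.42 for Rgs5 (then called) and −0.029 for the log2 ratio of the summed endothelial CPM, which was −0.12 in FPKM. The Wnt list then had 0 genes called higher and 7 lower, and the other endothelial list had 14 called lower. With this scaling 1 adhesion gene, Vcam1, was called lower (−0.23), while with DESeq2 the 1 called lower was Ackr1 (−1.04).

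Leaving out 1 library each time moved the log2 fold change of Cldn5 between −0.19 and 0.033, Pecam1 between −0.031 and 0.059, Cdh5 between −0.0043 and 0.16, Slco1a4 between 0.095 and 0.19, and Rgs5 between −0.43 and −0.22. Members called higher numbered 1 to 2 and lower 2 to 4, the upper counts coming without MRL/lpr replicate 3. In that fit 4334 of 20440 tested genes were called, 2363 of them higher, so the members' share then lay above the background. Calls of lower genes ranged from 6 to 12 in the other endothelial list and from 3 to 5 in the fibroblast list, and calls of higher genes from 0 to 1 in the Wnt list.

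The replicate numbers did not pair the libraries, with correlations of same-numbered deviations of −0.04, −0.02 and −0.03. With a replicate block, 1 member was called higher and 2 lower as before, at edgeR adjusted p of 0.0115 for Flt1, 0.00992 for Tek and 0.0252 for Pdgfrb, and the Wnt list had 0 genes called higher. Of the 45 called genes of the vascular lists, 4 lost their call with the block and 2 with library-size scaling. Leaving out 1 library each time lost 3 to 7 of these calls, with 7 lost without MRL/lpr replicate 1, MRL/lpr replicate 2 or MRL/mpj replicate 2. The cause of these shifts was not tested. With 3 libraries per strain, small differences such as those of Cdh5 and Kdr are not resolved.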
